A study of Rattus norvegicus with 61 samples.

Results

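Cerebellar granule cells are described here through 10 of the genes they use, namely Gabra6, Gabrd, Grin2c, Cbln1, Cbln3, Neurod1, Pax6, Zic1, Zic2 and Etv1. The genes were chosen by name, from a list of known granule cell genes, and matched to the deposited tables by NCBI Gene ID. All 10 were found among the 14129 genes of the cerebellar table and the 14231 genes of the striatal table. The libraries came from male adolescent Sprague-Dawley rats that wore a subcutaneous polymer implant for 28 days, placed on postnatal day 28. The implant held 4-OH-PCB52, which the body forms when it adds a hydroxyl group to PCB52, a polychlorinated biphenyl. In the cerebellum there were 7 sham libraries (0% loading), 8 low (1%), 8 medium (5%) and 8 high (10%). In the striatum there were 8 sham, 6 low, 8 medium and 8 high libraries. Sham rats carried an implant too, so all groups share the surgery and the polymer. The sample labels name 15 rats per exposure group in the study and the series' design text names 6, while 6 to 8 libraries per group and region were analysed, so it is not settled that each library stands for a separate animal. Each library came from a tissue punch, which holds every cell type at the site. Libraries are named here by exposure and by the number in their label, such as low 22.

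Granule cells are the small excitatory neurons that fill the granular layer of the cerebellum and receive mossy fibres. Their parallel fibres run through the molecular layer and contact Purkinje cells. They bear GABA-A receptors that contain the alpha 6 and delta subunits and respond to GABA outside synapses, and in rodents their NMDA receptors gain the GluN2C subunit as they mature. They secrete cerebellins, which link presynaptic neurexins to receptors on Purkinje cells, and they keep transcription factors that mark their lineage.

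The RefSeq promoter table of the GRCr8 build held 7 of the 10 genes, and the 250 bases before the annotated start are shown for the 3 receptor subunit genes, because the levels of these 3 moved apart among the cerebellar libraries described below. The table has no entry for Cbln1, Cbln3 and Zic1. Capitals mark matches, on either strand, to CCTGCTG. Words of this kind, rich in G and C, are bound by Zic factors.
Gabra6, GRCr8 chr10:27327235-27327484, minus strand: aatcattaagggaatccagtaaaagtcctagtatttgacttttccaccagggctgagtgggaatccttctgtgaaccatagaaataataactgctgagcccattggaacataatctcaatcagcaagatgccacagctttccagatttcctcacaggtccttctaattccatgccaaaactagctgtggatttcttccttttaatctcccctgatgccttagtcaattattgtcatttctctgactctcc
Gabrd, GRCr8 chr5:171252710-171252959, minus strand: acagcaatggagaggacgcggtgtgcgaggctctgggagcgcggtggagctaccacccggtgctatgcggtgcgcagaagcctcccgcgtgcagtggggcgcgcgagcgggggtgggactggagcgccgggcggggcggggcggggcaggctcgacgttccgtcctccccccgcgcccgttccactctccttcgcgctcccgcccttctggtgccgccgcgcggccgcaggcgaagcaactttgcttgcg
Grin2c, GRCr8 chr10:101005139-101005388, minus strand: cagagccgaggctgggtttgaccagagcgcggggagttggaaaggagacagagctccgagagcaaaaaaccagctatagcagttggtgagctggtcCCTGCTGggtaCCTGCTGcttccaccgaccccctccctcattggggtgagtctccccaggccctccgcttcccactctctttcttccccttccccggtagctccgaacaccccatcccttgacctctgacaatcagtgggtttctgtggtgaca
The Gabra6 window had a GC content of 41.2%, and 16.4% of the 33469 promoters in the table lay below it. The Gabrd window had 74.0% GC, with 95.8% of promoters below it, and the Grin2c window had 59.6%, with 73.8% below it. The 7 windows were searched on both strands for CCTGCTG and for the E-box words CAGCTG and CATCTG, which transcription factors of the Neurod1 class can bind. CCTGCTG occurred in the Grin2c window only, at 2 places, and in 7.67% of all windows of this length. CAGCTG occurred in the Etv1 window only and in 12% of all windows. CATCTG occurred in none of the 7 and in 14% of all windows. A match is a description of the letters in these windows.

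Sequencing depth ran from 5420458 to 10994625 reads in the cerebellum (median 7223058) and from 5850199 to 10944066 in the striatum (median 7139973). Levels are given in CPM, a gene's reads relative to the size of its library, scaled by the trimmed mean of M values (TMM) over all 61 libraries. CPM does not correct for gene length, so levels are compared between libraries and not between genes. Some libraries stood apart from the rest of their region. In the cerebellum, 9 of 31 libraries (sham 48, low 6 and 22, medium 24, 40 and 41, high 28, 43 and 59) had a mean over 76 ribosomal protein genes more than 1 log2 unit above the regional median. In 5 of these the excess was over 2 log2 units, between 2.42 in medium 24 and 4.51 in high 43. In the striatum, 5 libraries (sham 17, 34 and 48, low 20, high 13) were more than 1 log2 unit above the median on a list of 8 transcripts of septum, thalamus and brainstem. Zic4, a relative of Zic1 and Zic2, is on this list, so leaving these libraries out is not independent of the Zic levels. Of these 5 libraries, sham 17, low 20 and high 13 went against their striatal label. Their transcripts of striatal projection neurons summed to 758, 1170 and 1287 CPM, where the group medians were 12722 to 15584 CPM. Sham 17, low 20, high 13 and high 44 form the set poor in projection neuron transcripts, more than 1 log2 unit under the median. The striatal libraries apart on the ribosomal list were sham 49, medium 8, medium 41 and high 28. Values without these sets of libraries stand beside the main ones where they moved a result.

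All 10 genes were higher in sham cerebellum than in sham striatum in edgeR's quasi-likelihood test with Benjamini-Hochberg adjustment over 12616 genes. Across all genes tested, 22.1% passed as higher in the cerebellum. The median log2 fold change of the 10 genes was 3.80, against 0.09 over all genes. It was 5.40 without the striatal libraries rich in septum, thalamus and brainstem transcripts and 4.58 without those poor in projection neuron transcripts, with all 10 genes passing in both. Since the genes were named as genes of a cerebellar cell type, this contrast also checks the punches. Adjusted p ran from 1.45e-15 to 9.56e-06.

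The receptor subunits differed widely in how closely they kept to the cerebellum. Gabra6 (NCBI Gene ID 29708), the alpha 6 subunit, ran from 520 CPM in sham 48 to 918 CPM in sham 1 in the cerebellum (median 835, n = 7), against 0 to 4.39 CPM in sham striatum (median 0.31, n = 8). The groups did not come near each other, and the log2 fold change was 9.55 ± 0.74 (SE), or 10.29 without the sham 49 striatum. Over all 30 striatal libraries Gabra6 had 104 reads in total, and 7 of these libraries had none, which at this depth does not show that the transcript is absent. Gabrd (29689), the delta subunit that pairs with alpha 6 in granule cells and with other alpha subunits in forebrain neurons, stood at 283 to 499 CPM in sham cerebellum (median 369), against 18.4 to 182 CPM in sham striatum (median 93.7). Its groups did not overlap, but its log2 fold change of 2.05 ± 0.37 was far below that of Gabra6. Grin2c (24411), the GluN2C subunit, which astrocytes also express in the forebrain, spanned 219 to 1232 CPM in sham cerebellum (median 1004), against 126 to 287 CPM in sham striatum (median 214). The sham 48 cerebellum, at 219 CPM, lay inside the striatal range, and the log2 fold change was 1.99 ± 0.33.

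Both cerebellins were high in the cerebellum and differed in the striatum. Cbln1 (498922), whose protein joins parallel fibres to Purkinje cells, ran from 1206 to 1589 CPM in sham cerebellum (median 1259), against 1.54 to 95.0 CPM in sham striatum (median 8.76). Cbln3 (501998), whose protein is secreted only in complex with Cbln1 in mice, ran from 88.1 to 612 CPM in sham cerebellum (median 447), against 0 to 1.91 CPM in sham striatum (median 0.10). Cbln3 was close to the floor in every striatal library, with 58 reads in all 30 and none in 12, while Cbln1 had at least 10 reads in 25 of 30. The log2 fold changes were 6.01 ± 0.92 for Cbln1 and 9.95 ± 0.85 for Cbln3. Cbln1 was at 7.00 without the sham 48 striatum, and Cbln3 at 11.22 without the sham 17 striatum.

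Among the transcription factors, Neurod1 (29458), a basic helix-loop-helix factor of maturing and mature granule cells, was the nearest to absent in the striatum. It ran from 199.9 to 757 CPM in sham cerebellum (median 691), against 0 to 17.4 CPM in sham striatum (median 0.34), where sham 17 alone held 182 of the 204 reads of the group. The log2 fold change was 7.89 ± 1.01, and it was 10.57 without the sham 17 striatum. Zic1 (64618) and Zic2 (361096), zinc finger factors of granule cell progenitors and their descendants that are also made in the septum and thalamus, were detected in all 30 striatal libraries. Zic1 ran from 218 to 679 CPM in sham cerebellum (median 596), against 7.11 to 169 CPM in sham striatum (median 11.6). Zic2 ran from 179 to 420 CPM in sham cerebellum (median 368), against 9.54 to 104 CPM in sham striatum (median 12.7). In both genes the highest striatal value was that of sham 17 and the groups did not overlap. The log2 fold changes were 3.82 ± 0.70 for Zic1 and 3.64 ± 0.60 for Zic2, and 4.79 and 4.36 without the sham 17 striatum alone. They were 5.83 and 4.97 without the striatal libraries rich in septum, thalamus and brainstem transcripts. The list that picked those libraries includes Zic4.

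Pax6 and Etv1 were lower in the striatum but well measured there. Pax6 (25509), a paired-box factor of the rhombic lip lineage, ran from 36.0 to 126 CPM in sham cerebellum (median 122), against 5.01 to 12.5 CPM in sham striatum (median 6.41; log2 fold change 3.77 ± 0.38). Etv1 (362733), an ETS factor of maturing granule cells that is also known from deep-layer cortical neurons, ran from 158 to 1094 CPM in sham cerebellum (median 857), against 41.9 to 90.5 CPM in sham striatum (median 75.8; 3.43 ± 0.41). Neither gene's groups overlapped.

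**Figure D1:**
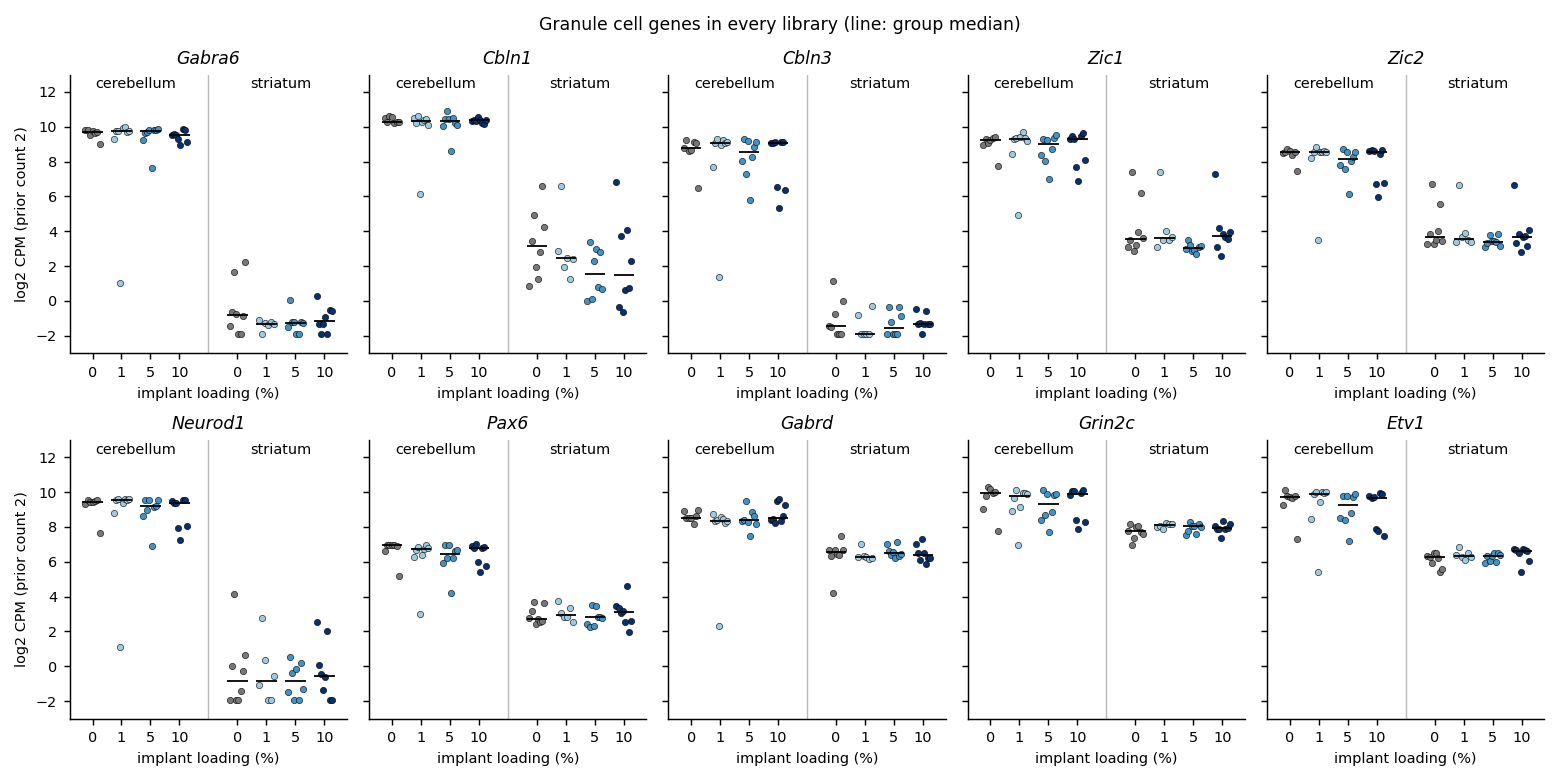
Each panel shows 1 gene as log2 CPM (prior count 2) in every library, with the cerebellum left of the striatum and the implant loading in percent along the axis. Points are libraries and lines are group medians: the 10 genes stand higher in the cerebellum, the loadings of a region overlap, and in each panel the lowest cerebellar point is low 22.

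Other genes known from granule cells also stood higher in the cerebellum. Of 18 measured genes on a list outside the 10, 15 passed as higher in sham cerebellum, none as lower, and the median log2 fold change was 2.20. Fat2, a giant cadherin of granule cells, averaged 1458 ± 799 CPM in sham cerebellum, against 1.74 ± 2.81 CPM in sham striatum (SD, n = 7 and 8; log2 fold change 9.65 ± 1.01). Barhl2, a homeobox factor of the lineage, averaged 77.4 ± 19.3 CPM in sham cerebellum, against 0.37 ± 0.74 CPM in sham striatum. Kcnk1, a potassium channel, and Chn2, a Rac-regulating protein, rose by 2.21 ± 0.18 and 2.41 ± 0.28. Precursor genes did not follow this pattern: 4 of 11 tested passed as higher in sham cerebellum and 5 as lower. Among the partners of the cerebellins, Nrxn2, a neurexin, was higher by 0.97 ± 0.29, while Grid1, which encodes GluD1, stood at -1.51 ± 0.22 and Cbln4, a cerebellin of forebrain neurons, at -4.93 ± 1.35. Of 6 relatives of the Zic, Etv and Neurod factors, 3 were higher (Etv4, Zic5 and Zic4, with 1.25, 2.56 and 2.44). Purkinje cell transcripts were present as well, 9 of 12 passing as higher in sham cerebellum, so the cerebellar punches held both cell types.

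Within the cerebellum, the 10 genes varied less between exposures than among libraries of the same exposure. The ratio of the highest to the lowest of the 31 libraries was 559 for Gabra6, 408 for Neurod1, 270 for Cbln3 and 167 for Gabrd, and 9.89 for Grin2c, the smallest. The lowest library was low 22 for all 10 genes. It had 1.80 CPM of Gabra6, from 14 reads, 1.93 CPM of Neurod1, 2.32 CPM of Cbln3 and 4.64 CPM of Gabrd. The other genes were less reduced there, among them Grin2c (125 CPM against a regional median of 927 CPM), Pax6 (7.86 against 107 CPM) and Cbln1 (70.8 against 1308 CPM). The mean of the 10 genes was 5.55 log2 units under the regional median. In the same library all 18 other granule cell genes and all 12 Purkinje cell genes were below their regional medians, and all 10 oligodendrocyte and myelin genes were above. The summed level of the myelin list was 54158 CPM there, against medians of 7165 to 7717 CPM in the 4 exposure groups, and Mbp, myelin basic protein, named after its values were seen, stood at 29603 CPM. None of the myelin genes was at 0 in it, and the part of these transcripts in the low values was not tested. The striatal library of the same number had an ordinary level of the list genes, with 11.1 CPM of Zic1. In a bulk sample such as a punch, fewer granule cells and less RNA of these genes per cell cannot be told apart.

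Medium 40 was the next lowest on the mean of the 10 genes, 2.26 log2 units under the median. It had 195 CPM of Gabra6, 389 CPM of Cbln1 and 56.3 CPM of Cbln3, while every cerebellar library other than low 22 and medium 40 had 503 CPM or more of Gabra6. All 8 measured genes of cortical and hippocampal neurons were above their cerebellar medians in it, with a summed level of 3416 CPM, against 878 CPM in the lowest medium library and a medium median of 1107 CPM. Slc17a7 is on this list and also on that of the other granule cell genes. It averaged 786 CPM in sham cerebellum, where the list summed to a median of 1092 CPM. The part of the listed genes in the low values of medium 40 was not tested.

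The libraries with the most ribosomal protein transcripts had a pattern of their own, in which the 10 genes did not move together. In the 5 libraries raised by over 2 log2 units (sham 48, medium 24 and high 28, 43 and 59), Gabrd was at 499 to 773 CPM, against 283 to 475 CPM in the 22 libraries that did not stand apart. All 5 were above all 22. Cbln3 was at 40.9 to 157 CPM, against 267 to 625 CPM in the 22, and Etv1 at 158 to 331 CPM, against 367 to 1094 CPM. Zic1, at 119.5 to 273 CPM against 329.5 to 823 CPM, and Zic2, at 63.5 to 191 CPM against 219 to 458 CPM, were also below all 22 in all 5. Neurod1 was below all 22 in 4 of the 5, and Pax6, Grin2c and Gabra6 in 3 of the 5. Gabra6 was less reduced than the others named here, at 503 to 829 CPM against a median of 871 CPM. Cbln1, at 1221 to 1917 CPM against a median of 1267 CPM, was above that median in 4 of the 5. These libraries were picked on the ribosomal list, so the values are a description. The share of all genes that lay outside the 22 in the same way was not counted. The pattern is therefore not shown to be particular to these genes.

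Part of this pattern depended on the scaling. Ribosomal protein transcripts summed to 349907 CPM in high 43, against medians of 14647 to 22360 CPM in the exposure groups. When counts were scaled by the library total instead of TMM, Cbln3, Zic1, Zic2 and Etv1 were still below all 22 in the 5 libraries. Gabrd was then at 400.1 to 642 CPM, above all 22 in 2 of the 5 and above their median in all 5. Cbln1 turned with this choice: it was above the median in 1 of the 5 and below all 22 in 4.

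**Figure D2:**
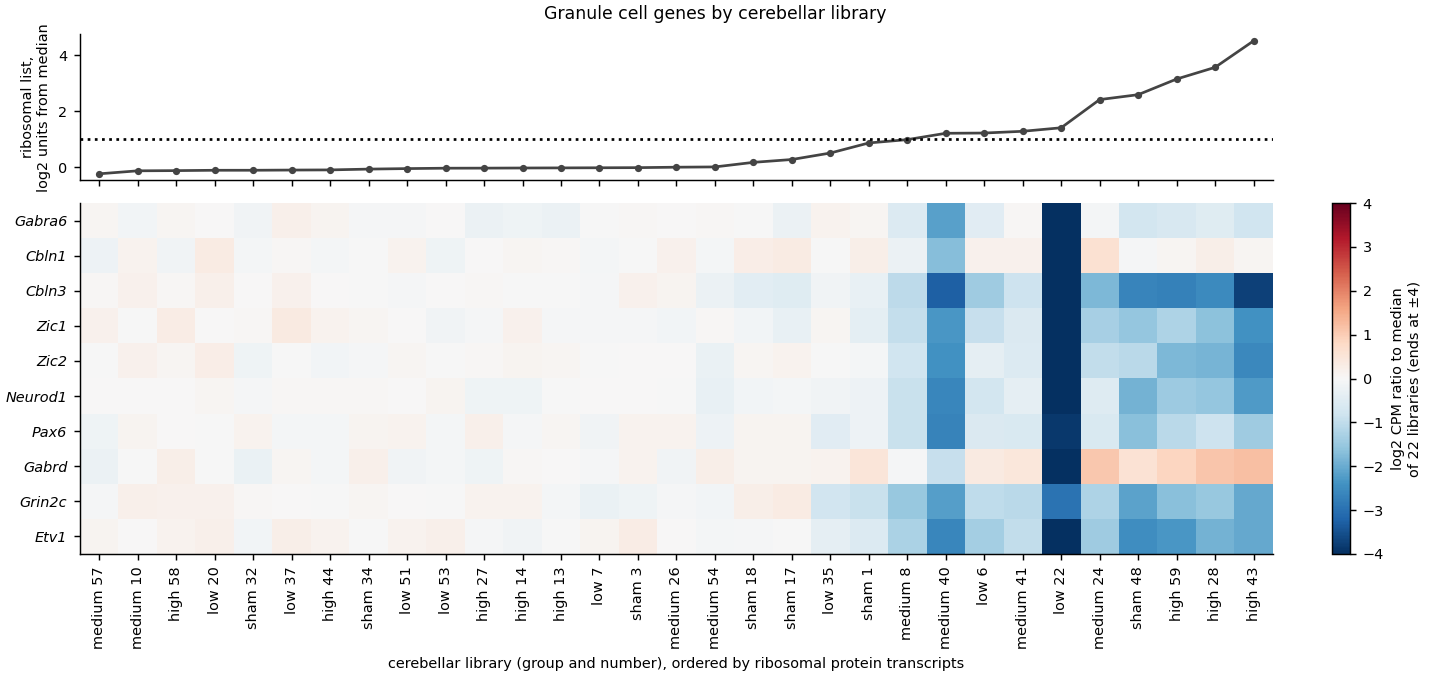
The upper panel gives, for the 31 cerebellar libraries in order, the mean log2 CPM of 76 ribosomal protein genes as a difference from the regional median, with a dotted line at 1. The lower panel shows each gene's log2 ratio to its median in the 22 libraries under that line, as colour: low 22 is low for all 10 genes, and at the right end Gabrd is high where Cbln3, Zic1, Zic2 and Etv1 are low.

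Ratios of reads between genes of the same library do not depend on the scaling. The ratio of Gabrd to Gabra6, the delta and alpha 6 subunits, was 0.853 to 1.54 in the 5 raised libraries (median 1.11), against 0.310 to 0.550 in the 22 (median 0.408). The ratio of Cbln3 to Cbln1 was 0.0304 to 0.0817 in the 5 (median 0.0620), against 0.244 to 0.504 in the 22 (median 0.425). Grin2c over Gabrd was 0.303 to 0.580 in the 5 (median 0.472), against 1.04 to 3.56 in the 22 (median 3.03). None of these ranges overlapped between the 5 and the 22. In the 4 other libraries apart on the ribosomal list, the 3 ratios ran from 0.512 to 2.57, 0.0328 to 0.215 and 1.00 to 26.9. Low 22 gave the 2.57, 0.0328 and 26.9. The ratio of Zic2 to Zic1 was similar in both sets of libraries, at 0.400 to 0.821 in the 5 against 0.450 to 0.796 in the 22. The raised libraries came from sham, medium and high rats, and each of these groups also had libraries among the 22. Other lists moved with them: the mean of the 18 other granule cell genes was 1.58 to 2.42 log2 units under the regional median in the 5, and that of 6 GABA-A subunit genes 1.82 to 2.78 under it, while the Purkinje cell list was between -0.16 and 0.74. The part of the ribosomal transcripts, or of RNA quality, in these values was not tested.

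**Figure D3:**
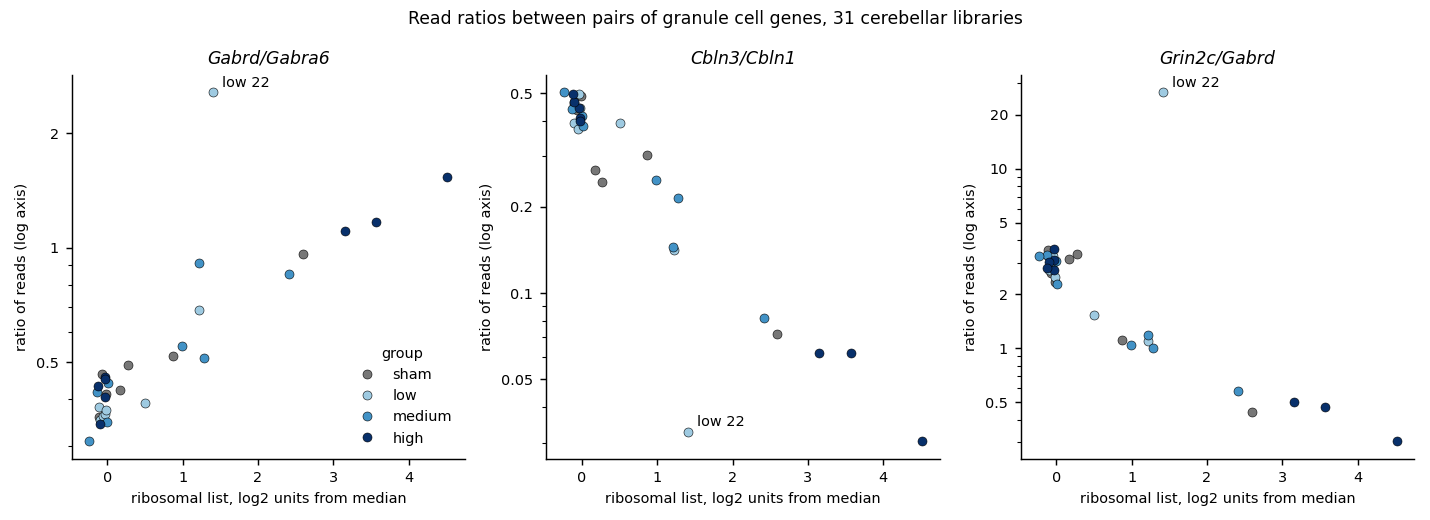
Ratios of raw reads on log axes for Gabrd to Gabra6, Cbln3 to Cbln1 and Grin2c to Gabrd, against the ribosomal protein list as log2 units from the regional median, in 31 cerebellar libraries coloured by exposure. Libraries of all exposures lie together near 0 on the horizontal axis, and the 5 libraries past 2 have the higher Gabrd to Gabra6 ratio and the lower ratios of the other panels; low 22 stands off in each panel.

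Not all of the 10 genes rose and fell with the others across the cerebellar libraries. Spearman's rho of each gene with the mean of the other 9 was 0.71 to 0.87 for Zic1, Pax6, Grin2c, Zic2, Cbln3, Neurod1 and Etv1 (31 libraries). It was 0.55 for Gabra6, 0.05 for Cbln1 and -0.29 for Gabrd. Over the 22 libraries that did not stand apart, rho was 0.63 for Etv1, 0.56 for Neurod1 and Cbln3, 0.47 for Zic2, 0.44 for Grin2c, 0.35 for Pax6 and 0.21 for Zic1. It was 0.09 for Cbln1, 0.03 for Gabra6 and -0.11 for Gabrd. Among 11923 other genes, those most like the mean of the 10 over the 31 libraries were Capn7 (a calpain protease), Gphn (gephyrin, the scaffold of inhibitory synapses), Exoc1 (a subunit of the exocyst), Slc16a14, Cep162 (a centriole protein) and Adamts18 (a secreted protease), with rho from 0.908 to 0.919. Over the 22 libraries their rho was 0.764 to 0.844. Libraries share depth, composition and dissection, and these correlations are descriptions with no test.

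In the cerebellum, no loading changed any of the 10 genes by edgeR's quasi-likelihood test with Benjamini-Hochberg adjustment, and at unadjusted p under 0.05 the count was also 0 of 10 at each loading. Among the 11946 genes tested, 0% passed at the low loading after adjustment, 0% at the medium and 0% at the high loading, and DESeq2 and limma-voom also called 0 genes in each. At unadjusted p under 0.05, 1.52% of all genes passed at the low loading, 1.42% at the medium and 11.7% at the high loading. All 3 comparisons share the sham libraries. The median log2 fold change of the 10 genes was -0.08 at the low loading, -0.19 at the medium and -0.21 at the high loading, against -0.03, -0.0011 and -0.03 over all genes. Adjusted p was 1.00 at the low and medium loadings and 0.841 to 0.949 at the high loading.

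Among the receptor subunits, Gabra6 had medians of 835 CPM in sham, 871 in low, 857 in medium and 745 CPM in high cerebellum, and the ranges overlapped. At the high loading its log2 fold change was -0.15 ± 0.48, with a 95% interval from -1.09 to 0.80. Gabrd had medians of 369, 329, 332 and 370.0 CPM in sham, low, medium and high. It alone of the 10 was on the upper side at the high loading, with 0.29 ± 0.42, and high 28, 43 and 59, which stood apart on the ribosomal list, held its 3 highest values of the group. Without the 9 libraries apart its value there was -0.14. Grin2c had medians of 1004, 888, 680 and 948 CPM from sham to high, and its log2 fold changes ran from -0.36 ± 0.42 (medium) to -0.20 ± 0.42 (low and high).

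The cerebellins gave the narrowest and the widest intervals. Cbln1 had medians of 1259, 1285, 1309 and 1326 CPM in sham, low, medium and high cerebellum, and its interval at the high loading ran from -0.70 to 0.59 around -0.06. Cbln3 had medians of 447, 529.8, 386 and 538 CPM, with an interval from -1.46 to 1.00 around -0.23 at the high loading. In each exposure group the lowest Cbln3 library was 1 of those apart on the ribosomal list, at 88.1 CPM in sham, 2.32 in low, 56.3 in medium and 40.9 CPM in high.

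The transcription factors showed the same overlap. Neurod1 had medians of 691, 744, 587 and 654 CPM from sham to high, Zic1 596, 637, 515 and 625 CPM, and Zic2 368, 371, 285 and 369 CPM. Pax6 had medians of 122, 105, 87.4 and 109 CPM and Etv1 857, 966, 641 and 823 CPM. For each of these genes the median was lowest in the medium group. The medium and the high group each had 3 of 8 libraries apart on the ribosomal list. The largest of their log2 differences from sham was -0.34 ± 0.45, for Zic2 at the high loading, and no p was under 0.374 at any loading for any of the 10 genes.

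Leaving out the 9 cerebellar libraries apart on the ribosomal list brought the spread down and turned several signs, with no gene passing. The standard errors were 0.33 to 0.63 with all libraries and 0.10 to 0.22 without the 9. At the high loading (5 high and 6 sham libraries), 6 of the 10 genes were then above sham and 4 below, with a median of 0.02, and Zic1, Cbln3, Grin2c, Etv1, Zic2 and Neurod1 turned to the upper side (0.22, 0.17, 0.09, 0.06, 0.04 and 0.0058). At the low loading 6 were above and 4 below, and at the medium loading 2 above and 8 below. In the medians of these libraries, Zic1 stood at 611 CPM in sham, 652 in low, 636 in medium and 711 CPM in high, and Gabra6 at 850, 876, 885 and 765 CPM. Adjusted p was 0.869 or more at each loading.

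**Figure D4:**
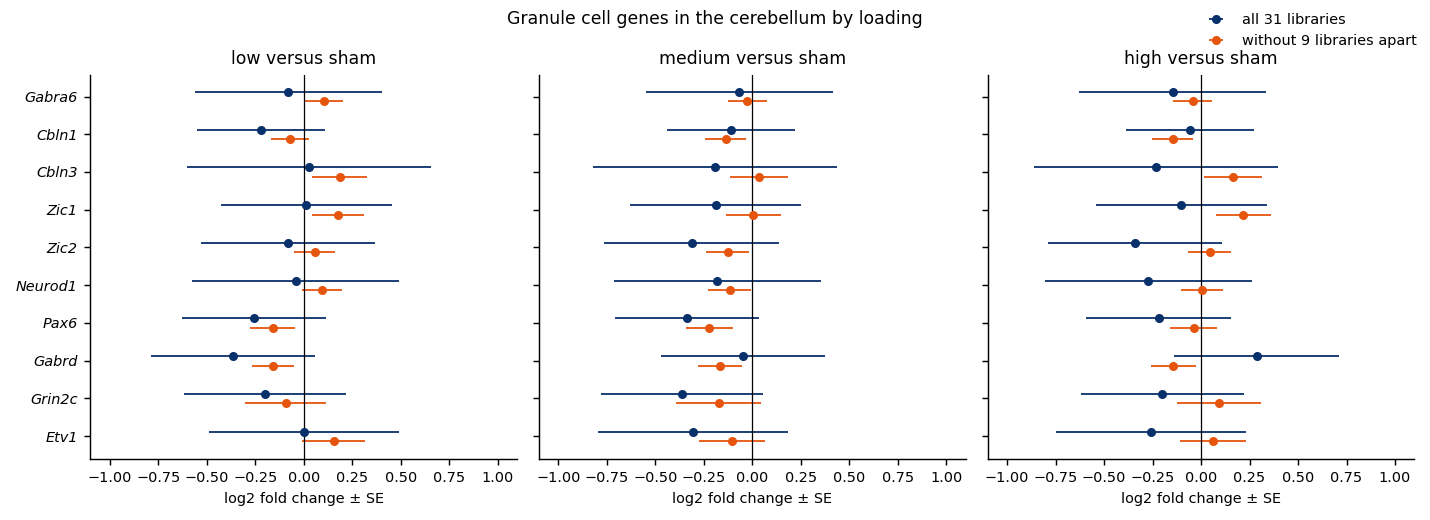
Log2 fold change against sham with its standard error for the 10 genes in the cerebellum at the low, medium and high loadings. Dark points use all 31 libraries and orange points leave out the 9 libraries apart on the ribosomal list: standard errors are 0.33 to 0.63 for the dark points and 0.10 to 0.22 for the orange ones, Gabrd at the high loading is at 0.29 and at -0.14, and no gene passed the test in either.

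The other lists of the cerebellar circuit held no gene past the test at any loading. Of the 18 other granule cell genes, 8 were above sham at the low loading, 4 at the medium and 2 at the high loading, with medians of -0.01, -0.21 and -0.14. Fgf12, an intracellular fibroblast growth factor that modulates sodium channels, had the smallest p of the list at the high loading, with 0.32 ± 0.17 (edgeR adjusted p 0.460). All 6 GABA-A subunit genes were below sham at the high loading (median -0.20), and 5 of 6 were above at the low loading. At the medium loading Gabra4, the alpha 4 subunit, had 0.91 ± 0.34 (unadjusted p 0.0122, adjusted p 0.999). Of 6 partners of the cerebellins, 5 were below at the high loading, with Grid1 at -0.44 ± 0.28. Of 5 other NMDA subunit genes, 4 were below (Grin1, the obligatory subunit, -0.30 ± 0.40). Purkinje cell genes had 7 of 12 above, with Pcp4 at 1.91 ± 0.63 and Pcp2 at 1.51 ± 0.68 (unadjusted p 0.0054 and 0.0344, edgeR adjusted p 0.417 for both). Pcp2 stood at 1812 to 7157 CPM in high 28, 43 and 59, the high libraries apart on the ribosomal list, and at 293 to 335 CPM in the other 5 high libraries, against 1554 CPM in sham 48 and 324 to 629.5 CPM in the other 6 sham libraries. At that loading all 75 tested ribosomal protein genes were above sham, with a median of 1.78. None of these genes passed after adjustment.

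In the striatum, 7 of the 10 genes passed the filter on low counts, and Gabra6, Cbln3 and Neurod1 did not. None of the 7 passed the test at any loading. Of 12267 genes, 0% passed at the low, 0% at the medium and 0% at the high loading. DESeq2 and limma-voom also called 0 genes, but DESeq2 gave Zic1 and Zic2 no p. At unadjusted p under 0.05 there was 1 of the 7 at the low loading, against 3.84% of all genes, 3 at the medium loading, against 3.69%, and 1 at the high loading, against 1.15%.

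The 3 genes at the medium loading were Zic1, Zic2 and Cbln1. Zic1 ran from 6.21 to 10.8 CPM in medium striatum (median 7.92, n = 8), against 7.11 to 169 CPM in sham striatum (median 11.6, n = 8). Zic2 ran from 8.19 to 14.4 CPM in medium striatum (median 10.3), against 9.54 to 104 CPM in sham (median 12.7). Cbln1 ran from 0.75 to 10.1 CPM in medium striatum (median 3.01), against 1.54 to 95.0 CPM in sham (median 8.76). The groups overlapped in each gene, and the sham group held a few high libraries that the medium group lacked. The log2 fold changes were -2.23 ± 0.79 for Zic1, -1.37 ± 0.61 for Zic2 and -2.34 ± 1.05 for Cbln1 (unadjusted p 0.0085, 0.0330 and 0.0330, adjusted p 1.00 for all 3). Without the striatal libraries rich in septum, thalamus and brainstem transcripts they were -0.23, -0.04 and -0.83, and none of the 7 genes had an unadjusted p under 0.05. Those libraries were picked on a list that includes Zic4, so this fit is not independent of the Zic levels. The other left-out sets did not remove the low unadjusted p values in edgeR. Without the libraries poor in projection neuron transcripts, 3 of the 7 genes had one under 0.05, the smallest 0.00335. Without those apart on the ribosomal list 2 of the 7 did, the smallest 0.0209. None passed after adjustment in either fit.

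The high values of these genes lay in a few libraries of sham, low and high rats. Zic1 was at 169 CPM in sham 17, 171 in low 20 and 156 CPM in high 13, with 74.0 CPM in sham 48 and at most 17.9 CPM in the other 26 striatal libraries. Zic2 stood at 104, 102 and 102 CPM in sham 17, low 20 and high 13, and Cbln1 at 96.8 CPM in low 20, 113 CPM in high 13 and 95.0 CPM in sham 48, but at 30.1 CPM in sham 17. Neurod1 reached 17.4 CPM in sham 17, 6.48 in low 20 and 5.60 CPM in high 13. Gabrd, in contrast, was at its lowest in sham 17 (18.4 CPM) and above its striatal median of 84.7 CPM in low 20, high 13 and sham 48 (129.7, 129 and 182 CPM). The list of septum, thalamus and brainstem summed to 402 CPM in sham 17, 695 in sham 48, 1674 in low 20 and 1537 CPM in high 13, against 59.9 to 80.2 CPM in the medium group. All 8 genes of the list were above their striatal medians in low 20 and high 13 and 7 of 8 in sham 17 and 48, and none was at 0 in these libraries. Choroid plexus transcripts moved with some of them: the 10 genes of that list summed to 14804 CPM in sham 17, 1264 in sham 48 and 436 CPM in high 13, against 151 to 277 CPM in the medium group. Low 20, at 304 CPM, lay within the range of the low group, 223 to 365 CPM. None of the 10 genes was at 0 in these libraries. All 10 were below sham at each loading, with medians of -3.06 at the low, -4.18 at the medium and -3.73 at the high loading. In edgeR 8, 10 and 10 of them had an unadjusted p under 0.05 from low to high. None passed after adjustment at any single loading. Sham 17 was also 1.97 log2 units above the striatal median on the list of cortical and hippocampal neurons, with 6 of its 8 genes above their medians and none at 0. This was not particular to the libraries with high Zic1. High 44 and sham 49 were at 2.91 and 2.19 on that list, while low 20, high 13 and sham 48 were at 0.11, 0.14 and 0.78. Projection neuron transcripts summed to 13351 to 18135 CPM in the medium group, which held none of the libraries poor in them. The part of these transcripts in the Zic1, Zic2 and Cbln1 values was not tested beyond leaving these libraries out.

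**Figure D5:**
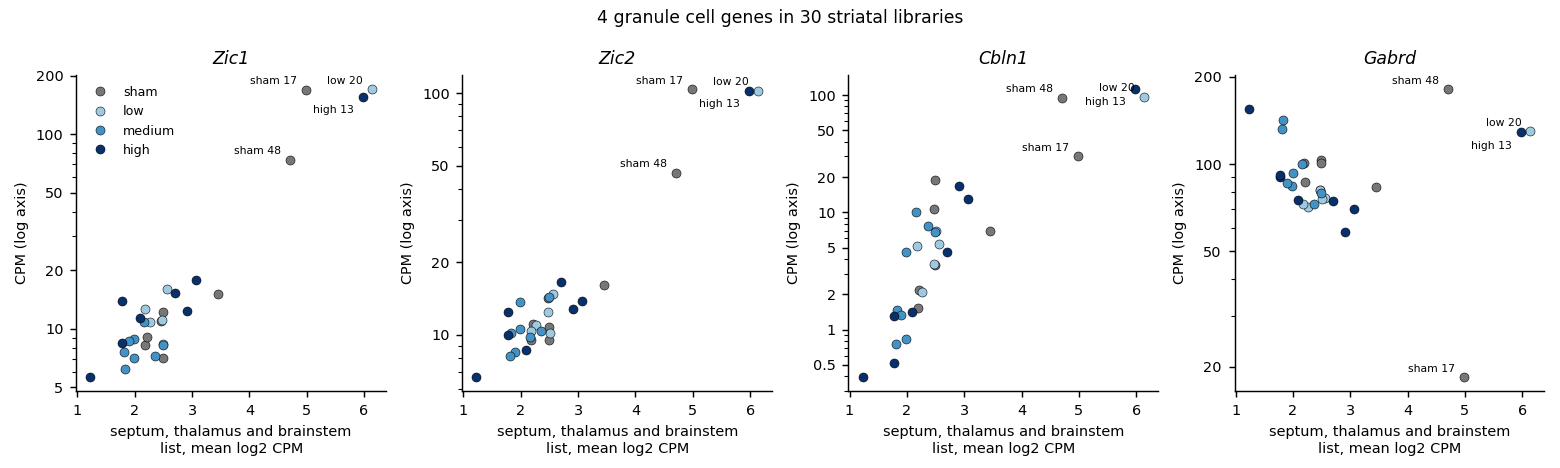
CPM on log axes of Zic1, Zic2, Cbln1 and Gabrd in 30 striatal libraries, coloured by exposure, against the mean log2 CPM of 8 septum, thalamus and brainstem transcripts. Sham 17 and 48, low 20 and high 13 lie at the right with the highest Zic1 and Zic2; no medium library is among them, and Gabrd is lowest in sham 17.

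Grin2c and Etv1, the genes with an unadjusted p under 0.05 at the low and high loadings, were measured more evenly in the striatum. Grin2c ran from 239 to 300 CPM in low striatum (median 279, n = 6), against 126 to 287 CPM in sham (median 214), with 0.35 ± 0.16 (unadjusted p 0.0322, adjusted p 0.905). It was 0.27 without sham 17, which had the lowest sham value. Etv1 ran from 42.2 to 106 CPM in high striatum (median 99.2), against 41.9 to 90.5 CPM in sham (median 75.8), with 0.35 ± 0.17 (unadjusted p 0.0462, adjusted p 1.00), and 0.19 without the septum-rich libraries. With single libraries left out, Etv1 at the high loading ran from 0.27 (without sham 48) to 0.45 (without high 28). At that loading 1 of the 7 genes had an edgeR unadjusted p under 0.05 without the libraries apart on the ribosomal list (0.00957). The count was also 1 without those poor in projection neuron transcripts (0.00916), and 0 without the septum-rich libraries. The groups overlapped in both Grin2c and Etv1. Pax6 and Gabrd had log2 fold changes between -0.15 and 0.29 at the 3 loadings. Of 15 tested granule cell genes outside the 10, edgeR called 0 at each loading, with 2, 2 and 0 at unadjusted p under 0.05 from low to high. At the medium loading the 6 relatives of the Zic, Etv and Neurod factors had a median of -0.90, with Zic4 at -2.45 ± 0.93, the list of septum, thalamus and brainstem had all 8 genes below sham (median -1.25), and Zic4 belongs to both.

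Tests over all loadings together and of a linear trend with percent loading gave the same count. In the cerebellum 0% of genes passed for any exposure and 0% for the trend in edgeR, and in the striatum 0.0245% and 0%, and none of the 10 genes was among them. In the cerebellum 1236 and 2464 genes had an unadjusted p under 0.05 in these tests, and none of the 10. DESeq2 called 43 and 831 genes there and limma-voom 1 and 0, none of them among the 10. In the striatum Zic1 alone of the 7 had an unadjusted p under 0.05 for any exposure (0.0451, adjusted p 1.00), and none had for the trend. For the trend 1 of the 7 had an edgeR unadjusted p of 0.0229 without the libraries apart on the ribosomal list. Without those poor in projection neuron transcripts 1 had 0.0084. Without the septum-rich libraries 0 were under 0.05. The change at the high loading was compared between the regions by an interaction term over all 61 libraries. It passed in 0.00793% of 12616 genes and in none of the 10, whose adjusted p ran from 0.594 to 0.985.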

How the data were processed

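Poly(A)-selected or ribosome-depleted RNA, the labels name both, was sequenced from 61 tissue punches, and per the submitters' processing notes reads were aligned with HISAT2 to rn6; no versions are given there. The authors deposited raw read counts per gene in 1 table per region, with 0 columns left unmapped to a sample. Library depth is given with the results. The counts were tested with edgeR 4.0.16 in R 4.3.3 (TMM scaling, filterByExpr, robust quasi-likelihood fit), all 4 loadings of a region in the same fit, and both regions over 13889 shared genes for the contrasts between regions. P-values were adjusted by the Benjamini-Hochberg method over all genes tested, with a threshold of 0.05. Intervals are 95% and standard errors come from the fit. Log2 CPM used a prior count of 2. The tables were made separately for each region, so levels set across regions rest on the joint scaling. Alternatives were DESeq2 1.42.0, limma-voom 3.58.1, other scalings, no filter, blocks and left-out libraries; the sets of libraries apart were chosen after seeing the data. The members and lists were chosen with earlier results of these data known. The rule for names was all 10 genes, up to 4 genes of the smallest p per list and comparison, and the 6 genes most like the mean of the 10. The labels do not tie each library to a separate animal beyond its number, so p-values measure the spread between these samples. Promoter sequences are RefSeq's, on GRCr8, and were used for letters only. Some genes of the related lists are not reported here by name.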

Additional observations from a re-analysis of the deposited data

Results flagged for a closer look

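Dixon's test on log2 CPM, applied to each gene in each exposure group, marks a library far from the rest of its group. It marked 33 of 80 combinations of gene and group, 22 in the cerebellum and 11 in the striatum. Chance alone marks about 1 in 20 independent combinations. These are not independent, since the 10 genes were read in the same libraries and low 22 alone gave 10 marks. The share marked over all genes was not counted. Most marks fall on a few libraries, and no explanation was weighed.

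In the cerebellum low 22 was far below the other low libraries for all 10 genes, with 1.80 CPM of Gabra6, 70.8 of Cbln1, 2.32 of Cbln3, 29.8 of Zic1, 11.2 of Zic2, 1.93 of Neurod1, 7.86 of Pax6, 4.64 of Gabrd, 125 of Grin2c and 41.5 CPM of Etv1. Medium 40 was far below its group for Gabra6 (195 CPM), Cbln1 (389 CPM), Zic2 (70.7 CPM), Neurod1 (119 CPM) and Pax6 (18.1 CPM). Sham 48 was far below the other sham libraries for Gabra6 at 519.7 CPM, Cbln3 at 88.1, Zic1 at 218, Zic2 at 179, Neurod1 at 199.9, Pax6 at 36.0 and Etv1 at 158 CPM.

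In the striatum low 20 was marked for Gabra6, with 0 CPM, where the 6 low libraries together held 6 reads, so that the mark rests on single reads. It was above its group for Cbln1 (96.8 CPM), Zic1 (171 CPM), Zic2 (102 CPM) and Gabrd (129.7 CPM). High 13 was above its group for Zic1 (156 CPM) and Zic2 (102 CPM), and high 28 below it for Grin2c (163 CPM). Medium 10 was above its group for Gabra6, at 0.77 CPM, which is a handful of reads. Sham 17 was above its group for Neurod1 (17.4 CPM) and below it for Gabrd (18.4 CPM).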

How the results depend on the processing

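The counts of the 10 genes called kept their side of the threshold in every setting. With single libraries left out, the count stayed at 10 between regions in sham and at 0 in the other comparisons. In DESeq2, 9 genes were called between regions, since it gave Cbln1 no adjusted p. Counts over all genes differed for the cerebellar trend (DESeq2 831, edgeR 0), for any exposure in the cerebellum (DESeq2 43, limma-voom 1, edgeR 0), for any exposure in the striatum (11 without the filter, edgeR 3, and 0 in DESeq2 and limma-voom), for the interaction (DESeq2 4, no filter 6, edgeR 1) and between regions (limma-voom 9086, edgeR 5431). Scaling by the library total moved the median of all genes in high cerebellum to -0.16, against -0.03 with TMM. The number of shared genes among the 6 most like the mean of the 10 was 2 to 6 with libraries left out. The labels do not say that a number shared by both regions is the same animal. Correlations of deviations between same-numbered libraries had a median of 0.345, and 21 of 29, not all, were over 0.1, so the number stayed out of the main model. With it as a replicate block all 10 genes passed between regions (median 4.53, against 3.80) and 0 in the interaction, where the median of the 10 was -0.16, against 0.18, and 216 genes had an unadjusted p under 0.05, against 1015.

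Single values that changed sign are log2 fold changes against sham, none past the threshold, and the cause was not tested. DESeq2 gave Zic1 and Zic2 no p at any striatal loading. At the low loading it put them at 1.06 and 0.73, against -0.0015 and -0.05 in edgeR. In low cerebellum Gabra6, Zic2 and Neurod1 were 0.037, 0.040 and 0.025 with limma-voom and 0.11, 0.057 and 0.094 without the libraries apart on the ribosomal list, Zic1 and Etv1 were -0.048 and -0.044 when runs of 15 animal numbers were a block, and Etv1 was -0.0027 with no filter and -0.0020 with the compared groups alone. In medium cerebellum Gabra6 and Cbln3 were 0.023 and 0.035 with limma-voom, and Cbln3 and Zic1 were 0.034 and 0.0052 without those libraries. In high cerebellum Cbln3, Zic1, Zic2, Gabrd and Grin2c were 0.085, 0.12, 0.036, -0.081 and 0.020 with limma-voom. Without those libraries Cbln3, Zic1, Zic2, Neurod1, Gabrd, Grin2c and Etv1 were 0.17, 0.22, 0.044, 0.0058, -0.14, 0.093 and 0.063. In low striatum Zic1 was 0.0032 with RLE size factors, 0.10 with limma-voom, 0.0073 with no filter or the compared groups alone, and 0.32 without the septum-rich libraries, Cbln1 was 0.11 with limma-voom and Zic2 0.10 without the septum-rich libraries. In medium striatum Gabrd was -0.047 with limma-voom, -0.12 without the libraries apart on the ribosomal list and -0.082 without those poor in projection neuron transcripts, and Pax6 was 0.043 without the ribosomal set. In high striatum Zic1 was 0.27 with limma-voom and 0.36 without the septum-rich libraries, Zic2 0.079 without these, Cbln1 0.023 without the ribosomal set and Pax6 -0.033 without those poor in projection neuron transcripts.

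Leaving out each library in turn gave these ranges where the sign turned. In low cerebellum, from the fit without sham 48 to that without low 22, Cbln3 was -0.15 to 0.22, Etv1 -0.18 to 0.18, Gabra6 -0.16 to 0.11, Neurod1 -0.20 to 0.15, Zic1 -0.12 to 0.20 and Zic2 -0.20 to 0.11. In medium cerebellum Cbln1 was -0.23 (without medium 24) to 0.023, Gabra6 -0.15 (without sham 48) to 0.077 and Gabrd -0.25 (without medium 24) to 0.054, the upper values without medium 40. In high cerebellum Zic1 was -0.24 (without sham 48) to 0.040 (without high 43). In low striatum, Cbln1 was -2.14 (without low 20) to 0.91 (without sham 48), Gabrd -0.31 to 0.056 (the same libraries), Pax6 -0.079 (without low 7) to 0.24 (without sham 17), Zic1 -1.70 (without low 20) to 0.97 (without sham 17) and Zic2 -1.24 to 0.67 (the same libraries). In medium striatum Gabrd was -0.080 (without sham 17) to 0.28 (without sham 48), and Zic1 was -1.25 and Zic2 -0.65 without sham 17. In high striatum Cbln1 was -1.94 (without high 13) to 0.83 (without sham 48), Gabrd -0.17 (without sham 17) to 0.19 (without sham 48), Pax6 -0.058 (without high 44) to 0.42 (without sham 17), Zic1 -1.65 (without high 13) to 0.63 (without sham 17) and Zic2 -1.25 to 0.45 (the same libraries).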
